A study of Mus musculus with 18 samples.

Results

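The baseline described here is the whole spinal cord of 3 untreated, non-transgenic C57BL/6 mice aged 10 months (NTg), which were chosen by their label from the 18 libraries of the series. The labels name a separate animal for each library, and the animals are called NTg 1, NTg 2 and NTg 3 in the order of their records. Values given as a run of 3 numbers follow that order. The study measured total RNA in 6 genotypes, 3 animals each, to compare these cords with those of mice carrying human sequences. The other 15 animals were heterozygous knock-ins of human ATXN2 with 22 (Q22) or 33 (Q33) glutamines, of human TDP-43, or of human TDP-43 together with either ATXN2 form (Q22;TDP-43 and Q33;TDP-43). They had the same age and tissue, and they appear below only where they give a range to read the NTg values against. The NTg animals carry no knock-in, and the labels give neither their sex nor their litter.

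The spinal cord holds a core of grey matter, where motor neurons lie ventrally and sensory relay neurons dorsally, inside a mantle of white matter made of myelinated axons. Oligodendrocytes wrap those axons, astrocytes clear glutamate and potassium from the space around synapses, and microglia are the resident immune cells. Because the tissue was taken whole, the RNA of all these cells was read together. A lower value for a marker can mean fewer cells of that class or less RNA per cell, and these cannot be told apart.

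The 3 libraries held 23980491, 18578745 and 21634026 counts, and 28770, 27410 and 27770 genes had at least 1 count. Levels are given as CPM, the counts scaled to a common library size after TMM scaling, and, where genes are compared with each other, as CPM per kilobase of the gene's summed exon length. At these depths 3 counts amounted to 0.115, 0.156 and 0.133 CPM, and a gene with fewer counts was read as not measured. Errors are SDs over the 3 animals. An SD from 3 animals is itself imprecise, since its 95% interval runs from 0.521 to 6.28 times the estimate.

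At least 1 count in some NTg library was found for 32286 of the 54446 genes in the table, and a count in all 3 libraries for 24161. A mean of at least 1 CPM was reached by 16321 genes, among them 13392 of the 21905 nuclear protein-coding genes and 442 lincRNA genes. A mean of 10 CPM was reached by 9233 genes, 100 CPM by 1735 and 1000 CPM by only 46. The levels were concentrated in few genes: 542 genes together held 50% of the summed mean CPM. Among nuclear protein-coding genes alone, 1102 held 50% of their own sum.

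Mitochondrial ribosomal RNA was the most counted RNA of the NTg cord although the libraries had been depleted of ribosomal RNA. It held 14.3%, 19.2% and 19.8% of the counts, a mean of 17.8% ± 3.05 (SD, n = 3). The 15 other libraries ranged from 12.7% to 28.7%, so the NTg values lay within their range. Nuclear protein-coding genes held 77.6%, 73.2% and 73.0% of the counts, mitochondrial messenger RNAs 2.44% ± 0.174 and lincRNAs 3.27% ± 0.181. The 15 most counted genes took 24.97% ± 3.00 of the counts, against 6.44% ± 0.318 for the 15 most counted genes off the mitochondrial chromosome.

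**Figure D1:**
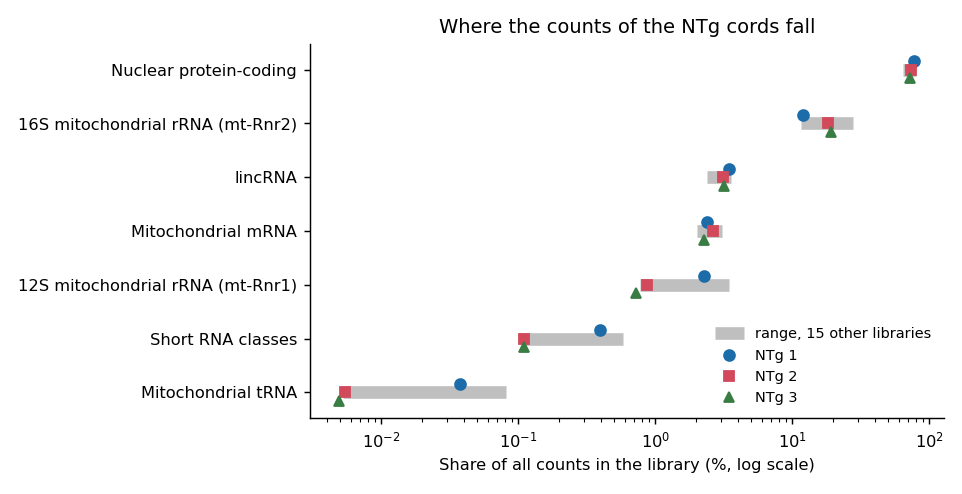
Share of all counts, in percent on a log axis, taken by each RNA class in each NTg library (points), with the range of the 15 libraries of the other genotypes (grey bars). NTg 1 stands apart from NTg 2 and NTg 3 in mt-Rnr1, the short RNA classes and mitochondrial tRNA, and the 3 libraries lie close together in mitochondrial mRNA.

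The gene at the top was mt-Rnr2, the large ribosomal RNA of mitochondria, with 110312, 177987 and 183658 CPM. Its partner mt-Rnr1, the small ribosomal RNA, went the other way, with 20874, 8429 and 7003 CPM. NTg 1 therefore had the lowest value of the one and the highest of the other, and the ratio of mt-Rnr1 to mt-Rnr2 counts was 0.189 there against 0.0474 and 0.0381. Ratios in the other genotypes also spread widely, from 0.0405 to 0.216. Both RNAs are cut from a common mitochondrial precursor and are needed in equal numbers in the ribosome.

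After the ribosomal RNAs the order by CPM was led by Malat1, a nuclear long noncoding RNA, with 13264, 12879 and 13350 CPM. The 3 values differed little, and Malat1 had a mean of 13164 CPM and the highest level per kilobase of all nuclear genes of at least 300 bases (1885). Meg3, an imprinted maternally expressed lincRNA, had 4972, 3624 and 3827 CPM, highest in NTg 1. Gm26917 (3875, 5563 and 5718 CPM) and Gm42418 (2257, 758 and 928 CPM) are neighbouring gene models on chromosome 17. RefSeq lists Gm42418 as a synonym of a ribosomal RNA-related sequence, Rn18s-rs5. NTg 1 had the lowest value of Gm26917 and the highest of Gm42418.

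Slc1a2, the main glutamate transporter of astrocytes (chromosome 2, 102658659 to 102790784 of mm10), was among the most counted nuclear protein-coding genes with 4556, 5157 and 4678 CPM, as was Mbp, myelin basic protein, with 4737, 4321 and 5118 CPM. Slc1a2 and Mbp overlapped: NTg 1 and NTg 3 had more Mbp than Slc1a2, and NTg 2 had less. The microtubule-associated proteins Map1b (4183, 3290 and 2722 CPM) and Map1a (3134, 2221 and 2031 CPM) and the synaptic fusion protein Snap25 (2728, 3517 and 3200 CPM) were lower on average. Map1b, Map1a and Sparcl1, a matricellular protein of astrocytes and vessels (3372, 2520 and 2717 CPM), were all highest in NTg 1, whereas Snap25 was lowest there.

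Scaling by length changed the order. Fth1, the heavy chain of ferritin that stores iron, reached 1028 CPM per kilobase from a mean of 890 CPM over 866 bases of exon. Sparcl1 had 977, Mbp 562, the tubulin gene Tubb4a 468 and Snap25 464 CPM per kilobase. Calm3, which encodes the calcium sensor calmodulin, stood at 444 CPM per kilobase and Nefl, the light neurofilament chain, at 410. Calm2, which encodes the same protein, had 740, 519 and 502 CPM, or 400 CPM per kilobase. Other genes of the 25 highest per kilobase included Scd2 (a lipid desaturase), Atp1b1 (a subunit of the sodium pump), Ckb (brain creatine kinase), Vsnl1 (a neuronal calcium sensor), Cplx1 (a regulator of vesicle fusion), Hsp90ab1 (a chaperone) and Rplp1 (a ribosomal stalk protein).

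Mitochondrial messenger RNAs, most of which are cut from a common precursor, fell into a high and a low group. The 8 highest ran from mt-Co1 (cytochrome oxidase subunit 1) at 8141 CPM per kilobase through mt-Atp8 (3767), mt-Nd1 (2552), mt-Nd5 (1483), mt-Cytb (1207), mt-Nd2 (1126) and mt-Nd4 (1079) to mt-Nd6 (1052). The other 5 were far lower: mt-Atp6 at 84.6, mt-Nd3 at 34.0, mt-Nd4l at 7.21, mt-Co3 at 6.21 and mt-Co2 at 1.70 CPM per kilobase. Only 15, 27 and 34 read pairs were counted for mt-Co2 in the 3 libraries.

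The 5 low messages were nearly wholly repeated in other annotated genes. Of all 100-base windows of the transcript, 99.5% of mt-Co2, 99.9% of mt-Co3, 99.5% of mt-Atp6, 97.6% of mt-Nd3 and 98.5% of mt-Nd4l were also present, letter for letter, in a transcript of another gene. In mt-Atp8, mt-Nd1, mt-Nd5, mt-Cytb and mt-Nd6 no window was shared, and in mt-Nd2 3.19% were. The shared share was 30.8% in mt-Co1 and 60.8% in mt-Nd4, both of which kept levels over 1000 CPM per kilobase. The leading copies of these 5 genes, and of mt-Co1 and mt-Nd4, lie on chromosome 1 between 24611535 and 24616197, whereas that of mt-Nd2, Gm13339, lies on chromosome 2. The counting command in the file header sets no option for reads that map to several places. The counted levels of these 5 genes are therefore uncertain as levels in the cord. The copies of these 5 genes had mean levels from 9.84 CPM in Gm28438 to 131 CPM in Gm10925, and each was highest in NTg 1. Gm10925, the copy of mt-Atp6, had 276, 61.4 and 55.1 CPM. Among the messages themselves mt-Nd2, mt-Nd4, mt-Atp6, mt-Nd3 and mt-Co2, 5 of 13, passed the limit of spread described below, which 6.11% of all genes with at least 1 CPM pass.

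**Figure D2:**
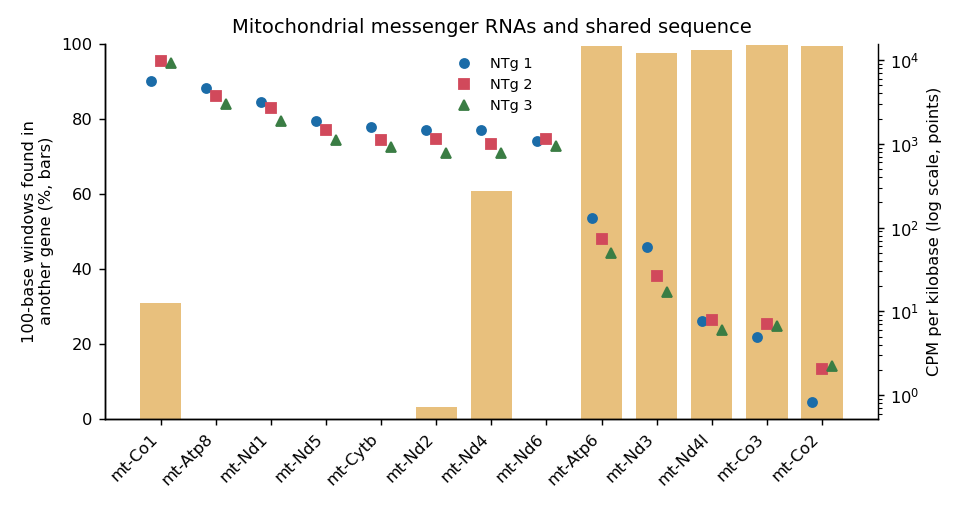
Level of the 13 mitochondrial messenger RNAs in CPM per kilobase (points, log axis on the right, 1 marker per animal) and the share of their 100-base windows that occur in a transcript of another gene (bars, percent, left axis). The 5 genes at the right, from mt-Atp6 down to mt-Co2, have more than 97% of their windows shared and are the lowest in every animal.

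Cell classes were read through lists of marker genes. The levels of the main glial and neuronal lists were of like size. The 20 genes of myelinating oligodendrocytes had a median of 68.9 CPM per kilobase, the 14 of general astrocytes 77.3 and the 15 of neurons at large 77.6. Summed in CPM, however, the myelin genes came to 16543, 15777 and 17556, more than the astrocyte genes (9190, 9589 and 9506) or the neuronal genes (9905, 9935 and 8601). These sums are set by a few members, and the lists were not chosen to have equal size. All 20 myelin genes, all 14 astrocyte genes and all 15 neuronal genes had at least 10 CPM.

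**Figure D3:**
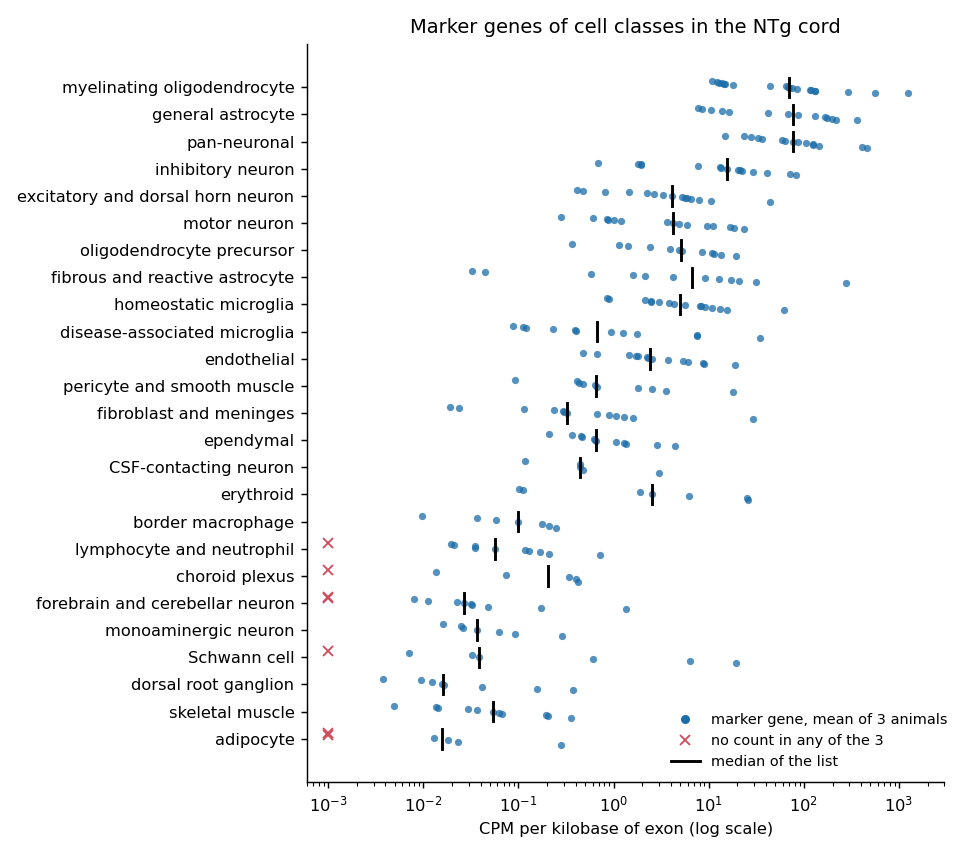
Mean level over the 3 NTg animals of each marker gene, in CPM per kilobase on a log axis, grouped by list (dots), with the median of each list (black line) and genes without a count (crosses at the left edge). The lists of myelin, astrocyte and neuron genes have medians between 68.9 and 77.6, and the 6 lists at the bottom, from forebrain and cerebellum to adipocyte, have medians of at most 0.0544.

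Within the myelin list Mbp exceeded Mobp, a myelin basic protein of oligodendrocytes, which stood at 2122, 1908 and 1985 CPM and 293 per kilobase. Ermn and Mal, structural genes of mature myelin, both had 131 CPM per kilobase. The enzymes and adhesion proteins of myelin were lower, from Cnp at 84.0 and Mag at 69.9 CPM per kilobase to Opalin at 10.7, the lowest of the list. Mag, a glycoprotein of the axon-facing membrane, was nearly constant, with 285, 280 and 289 CPM. Cldn11, the claudin of myelin tight junctions (90.7, 128 and 148 CPM), and Ugt8a, which makes galactolipids (238, 330 and 357 CPM), were lower in NTg 1 than in the other animals. Trf, with 77.3% of its windows shared with another gene model, is uncertain. Precursor cells were marked by a list with a median of 5.07 CPM per kilobase. Olig1, a transcription factor of the whole lineage, had 40.9, 42.6 and 42.97 CPM, and Pdgfra, the growth factor receptor of precursors, 52.6, 50.9 and 54.8 CPM. Bmp4, the lowest of these 12, had 0.827 ± 0.141 CPM.

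The astrocyte list was led per kilobase by Slc1a2 (365), by Glul, which makes glutamine from glutamate (217), and by S100b, a calcium-binding protein (197). Aldh1l1, a folate enzyme often used to mark astrocytes, was the lowest at 7.64 CPM per kilobase, or 36.2, 32.4 and 35.0 CPM. Slc1a3, the second astrocyte glutamate transporter, stood at 8.40 CPM per kilobase. Slc1a2 thus exceeded it by more than the spread over animals of either gene. Genes of fibrous and reactive astrocytes were less even. Gfap, the intermediate filament of astrocytes, had 1435, 769 and 1262 CPM and 274 per kilobase. C3, a complement component, had 184, 87.7 and 211 CPM, and Myoc, myocilin, 29.2, 9.33 and 18.4 CPM. All 3 were lowest in NTg 2. Vim, vimentin, had 73.8, 78.5 and 143 CPM and was highest in NTg 3. Lcn2, an acute-phase gene strongly induced in injured astrocytes, had 3, 1 and 2 counts, at or below the floor of 3 counts in each library.

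Neuronal genes were led by Snap25 and Nefl. The medium and heavy neurofilament chains Nefm (1102, 829 and 576 CPM) and Nefh (683, 474 and 343 CPM) were both highest in NTg 1 and lowest in NTg 3. Their biological CVs, the SD over the mean after counting error is taken out, were 0.315 and 0.343. Tubb3, a neuronal tubulin, showed another order, with 198, 260 and 245 CPM. Rbfox3, which encodes the nuclear marker NeuN, was the lowest of the list with 14.9 CPM per kilobase. Of the windows of Nefl 30.8% also occur in an annotated transcript of Nefm, and each value is uncertain to that extent.

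The 15 genes of inhibitory neurons had a median of 15.4 CPM per kilobase. Glra1, a glycine receptor subunit, reached 83.5 CPM per kilobase, Penk, the enkephalin precursor, 71.6, and Slc6a5, the glycine transporter of glycinergic neurons, 41.0. Slc32a1, which loads glycine and GABA into vesicles, had 65.4, 64.4 and 57.6 CPM, and the GABA-making enzymes Gad2 and Gad1 had means of 124 ± 10.2 and 104 ± 9.75 CPM. The lowest of these 15 was Lhx1, a developmental transcription factor, at 0.689 CPM per kilobase. Among excitatory genes Slc17a6, the vesicular glutamate transporter VGLUT2, had 228, 236 and 248 CPM (43.99 per kilobase). It stood far above Slc17a7 (VGLUT1) with 3.91, 0.365 and 3.47 CPM and Slc17a8 (VGLUT3) with 3.18, 1.36 and 1.25 CPM. Slc17a7 rested on 102, 7 and 78 counts and was low in NTg 2 alone. The dorsal horn peptide genes Tac2 (neurokinin B) and Nts (neurotensin) had 10.7 and 7.85 CPM per kilobase, and both were highest in NTg 3.

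Genes of motor neurons, which are few in the cord, had a median of 4.24 CPM per kilobase over 15 genes. Slc5a7, the choline transporter, led with 79.99, 206 and 110 CPM. Gfra1 and Esrrg, a receptor for glial growth factors and a nuclear receptor found in gamma motor neurons, had 88.3, 112 and 101 CPM and 104, 113 and 95.8 CPM. Chat, which makes acetylcholine, had 13.3, 23.4 and 15.2 CPM, and the vesicular transporter Slc18a3 10.6, 13.03 and 7.03. Chodl, a lectin of fast motor neurons, had 24.4, 45.7 and 26.6 CPM. Mmp9, a protease of the motor neurons most prone to degenerate, had 3.99, 4.69 and 3.87 CPM. The embryonic factor Isl2 was lowest, at 0.280 CPM per kilobase. Summed over the 15 genes, NTg 2 had 647 CPM against 445 and 462, within the 373 to 1012 CPM of the other genotypes.

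Genes of homeostatic microglia had a median of 4.94 CPM per kilobase. The complement gene C1qa had 17.8, 16 and 15.2 CPM, and Cx3cr1, the fractalkine receptor, 54.7, 54.5 and 68.8 CPM. All 16 homeostatic genes passed 1 CPM, and Trem2, a lipid receptor, was the lowest per kilobase at 0.858. Of the 12 genes known from disease-associated microglia, 7 passed 1 CPM. Spp1, osteopontin, was the highest at 51.6, 66.4 and 51.2 CPM; motor neurons also make it. The chemokine gene Ccl4 was the lowest, with at most 2 counts in a library. Genes of border macrophages were led by Mrc1 at 1.59 ± 0.294 CPM. Those of lymphocytes and neutrophils were led by S100a9 at 0.374 CPM, and none of these 11 passed 1 CPM.

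By CPM the receptor Flt1, the glucose transporter Slc2a1 and the organic anion transporter Slco1a4 led the endothelial genes, and Slc2a1 had 68.8, 59.1 and 71.3. Vwf was the lowest endothelial gene per kilobase at 0.480. Among pericyte and smooth muscle genes Rgs5 was highest (89.5, 63.9 and 90.4 CPM) and Des lowest (0.348 ± 0.107 CPM). In the meningeal list Ptgds, prostaglandin D synthase, had 38.2, 59.1 and 47.7 CPM, although oligodendrocytes also express it. Slc22a6 was lowest, and its mean of 0.0772 CPM lay below the level of 3 counts in each library. Ependymal cells, which line the central canal, gave a median of 0.648 CPM per kilobase, led by the ciliary regulator Foxj1 with 14.9, 9.43 and 10.2 CPM. The neurons that contact the cerebrospinal fluid were visible through the channel gene Pkd2l1 with 12.1, 8.86 and 11.1 CPM. Their other 4 genes were lower: Pkd1l2 had 4.10, 2.03 and 4.98 CPM, Gata2 3.45, 1.20 and 2.58, Tal1 2.11, 2.35 and 1.82, and Gata3 0.575, 0.261 and 0.578.

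The labelled tissue was checked against markers of its neighbours. Dlx5, a forebrain gene, had no count in any NTg library, and only 1 of 11 forebrain and cerebellar genes, Neurod6 at 2.87 CPM, passed 1 CPM. Of 8 dorsal root ganglion genes 1 passed 1 CPM (P2rx3, 0.959, 1.04 and 1.11 CPM), and the nociceptor sodium channels Scn10a and Scn11a had at most 2 counts each. None of 11 skeletal muscle genes, of 6 adipocyte genes or of 7 monoaminergic genes passed 1 CPM. The highest of each list per kilobase were Acta1 at 0.358, Car3 at 0.279 and Th at 0.288 CPM per kilobase. Of 7 genes of Schwann cells 3 passed 1 CPM: Pmp22 (40.7, 50.7 and 43.9 CPM), Drp2 and Ncmap. Pmp2, a protein of peripheral myelin, had no count, but 86.1% of its windows occur in another gene, so its 0 is uncertain. Of 6 choroid plexus genes 2 passed 1 CPM, Kl at 3.94 ± 0.798 and Clic6 at 1.33 ± 0.158 CPM, and Otx2 had no count. In the bone and cartilage list Acan, which neurons use in perineuronal nets, had 27.7, 27.5 and 20.1 CPM. Bglap had no count, with 56.3% of its windows shared.

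Hox genes record the head-to-tail position of cord segments. The genes of groups 6 to 9, which are used from the neck to the upper lumbar cord, were the strongest, and all 12 of them passed 1 CPM. Per kilobase Hoxc8 was the highest, at 46.6. Hoxb8 had 91.9, 90.7 and 87.4 CPM and Hoxa7 66.8, 70.9 and 64.3 CPM. In groups 4 and 5, Hoxa5 was the highest per kilobase with 13.7, 17.6 and 15.2 CPM, and Hoxd4 had 3, 0 and 0 counts. Of the 12 genes of groups 10 to 13 only Hoxc10 and Hoxa10 passed 1 CPM, and 6 had no count.

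Xist, the noncoding RNA of the inactive X chromosome, had 586, 654 and 622 CPM. The Y-linked genes Ddx3y, Eif2s3y, Uty and Kdm5d each stayed under 1 CPM in every NTg library. In the libraries of the other genotypes Ddx3y ranged from 0.281 to 86.8 CPM.

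Genes whose human counterparts are mutated in inherited ALS had at least 10 CPM each. None of the 20 passed the limit of spread described below, which 1.66% of all genes with 10 to 50 CPM pass, so this count says nothing particular about them. Kif5a, a motor protein of axonal transport, was the highest with 1648, 1405 and 1230 CPM (204 per kilobase). Sqstm1, a receptor for selective autophagy, had 59.4 CPM per kilobase and Matr3, a nuclear RNA-binding protein, 35.9. Tardbp, which encodes mouse TDP-43, had 127, 127 and 124 CPM, and 16.2 CPM per kilobase. Values for Vcp and Tuba4a are uncertain, as 54.7% and 46.7% of their windows occur in another annotated gene.

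Jun led the immediate early genes with 37.5, 30.2 and 37.1 CPM, followed per kilobase by Arc at 4.90 and Fos at 3.13, and Egr2 was lowest with at most 4 counts. The interferon-induced genes Ifit3 and Ifit1 had 8.18 ± 1.24 and 11.007 ± 2.03 CPM, and Isg15 was lowest at 0.328 CPM per kilobase. Heat shock genes split into constitutive and inducible members. Hspa8 (295 CPM per kilobase) and Hsp90aa1 (218) were abundant, whereas the inducible Hspa1a had 1.96, 2.81 and 2.40 CPM and Hspa1b 0.844, 0.521 and 0.578. Hspa1a and Hspa1b share 56.5% and 49.9% of their windows with other genes, chiefly each other, and are uncertain. Dbp, a clock output gene with a strong daily rhythm, had 29.3, 28.3 and 29.7 CPM, Nr1d1 24.9, 34.6 and 33.5, and Arntl, a core clock activator, 12.4, 13.7 and 12.9.

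Spread between the 3 animals was measured as the biological CV, and a gene with at least 1 CPM was called variable at 0.3 or more. By this rule 998 of 16321 genes (6.11%) were variable, and the median biological CV was 0.0855. The count was 436 with edgeR's tagwise dispersion and 138 with a floor of 10 CPM. Just inside the limit stood Ptafr at 0.30002 and just outside it Gm43623 at 0.29997. The share called variable fell with the level, from 23.04% of genes with 1 to 2 CPM to 1.27% of those with 100 CPM or more. On simulated counts of these genes, 69.6% of those with a true CV of 0.5 and 0.940% of those with a true CV of 0.1 were called. Lists of markers and pathways together had 57 variable genes among 332 with at least 1 CPM (17.2%), but the lists were not drawn at random and hold several short RNAs.

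Short RNAs varied most. Of 124 genes in the short RNA classes 82 were variable, including 41 of 47 small nucleolar RNAs and 10 of 11 mitochondrial transfer RNAs. Together these classes took 0.397%, 0.110% and 0.110% of the counts, with 0.105% to 0.582% in the other genotypes. NTg 1 was the high library in all of the 20 most variable genes with at least 5 CPM except Hoxc10. Ranking by CV favours genes with 1 high animal over genes with 1 low animal, so this count is no separate result. The floor is on the mean, and some genes passed it through NTg 1 alone, such as Gm23767 with 18.4, 1.30 and 1.11 CPM. The Y RNAs, short cytoplasmic RNAs that bind the Ro protein, show the size of the effect. Rny1 (chromosome 6, 47788069 to 47788180, minus strand) had 118, 5.68 and 8.01 CPM, and Rny3 (chromosome 6, 47781624 to 47781725, plus strand) 430, 56.3 and 57.02. Their sequences, from GENCODE M21 on the same build, are shown because these are separate genes that moved together and whose sequences are not identical. The longest stretch they have in common, in capitals, is 12 bases.
Rny1: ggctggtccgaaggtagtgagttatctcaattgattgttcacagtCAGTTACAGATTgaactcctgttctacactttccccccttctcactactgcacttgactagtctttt
Rny3: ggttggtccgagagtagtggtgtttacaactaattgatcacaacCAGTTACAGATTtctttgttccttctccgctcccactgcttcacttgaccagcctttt

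Other short RNAs moved with them. Rn7s2, a gene of the signal recognition particle RNA, had 235, 22.2 and 23.3 CPM, the transfer RNA gene mt-Tg 162, 16.1 and 15.3, mt-Tp 53.0, 9.28 and 7.29, and the brain cytoplasmic RNA Bc1 26.4, 3.39 and 3.65. Every window of Rn7s1 and Rn7s2 also occurs in another gene, so the split between them is uncertain. Rn7sk, the RNA that holds back transcription elongation, had 579, 346 and 330 CPM, and 61.2% of its windows occur in other genes. The spread of these genes was wide in the other genotypes as well: Rny1 ranged there from 8.40 to 193 CPM and Rn7s2 from 26.5 to 376. NTg 2 and NTg 3 lay below that range for both genes, and NTg 1 within it.

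The most variable gene of all was Gm22634, a copy of the U1 small nuclear RNA that recognises the start of introns (chromosome 12, 54710308 to 54710471, plus strand). It had 3081 counts in NTg 1 and 0 in the other 17 libraries of the series, which allows up to 3 counts in each. In all, 619 genes had counts in a single library that was an NTg one, and the next largest count among them was 4. Its neighbour Gm22513 (chromosome 12, 54696782 to 54696945, plus strand), another U1 copy, had 147, 412 and 467 counts in the NTg libraries and 351 to 1979 in the others, and was lowest in NTg 1. The pair is printed because 1 base separates a gene read in 18 libraries from a gene read in 1. The difference, in capitals, is C60T, counted from 1 at the 5′ end with Gm22513 first.
Gm22513: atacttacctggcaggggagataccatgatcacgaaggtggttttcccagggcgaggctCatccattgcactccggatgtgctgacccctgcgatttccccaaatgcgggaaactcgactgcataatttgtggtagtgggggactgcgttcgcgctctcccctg
Gm22634: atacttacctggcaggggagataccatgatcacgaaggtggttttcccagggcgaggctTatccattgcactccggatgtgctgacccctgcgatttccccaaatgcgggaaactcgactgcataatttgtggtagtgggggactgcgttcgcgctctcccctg
Gm22634 is 1 of 7 annotated genes with this exact sequence. The other 6 had at most 2 counts in an NTg library, but 1 of them, Rnu1a1, had 4491 counts in 1 library of another genotype and no more than 10 in the remaining 14. How reads were divided among the identical copies was not tested.

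**Figure D4:**
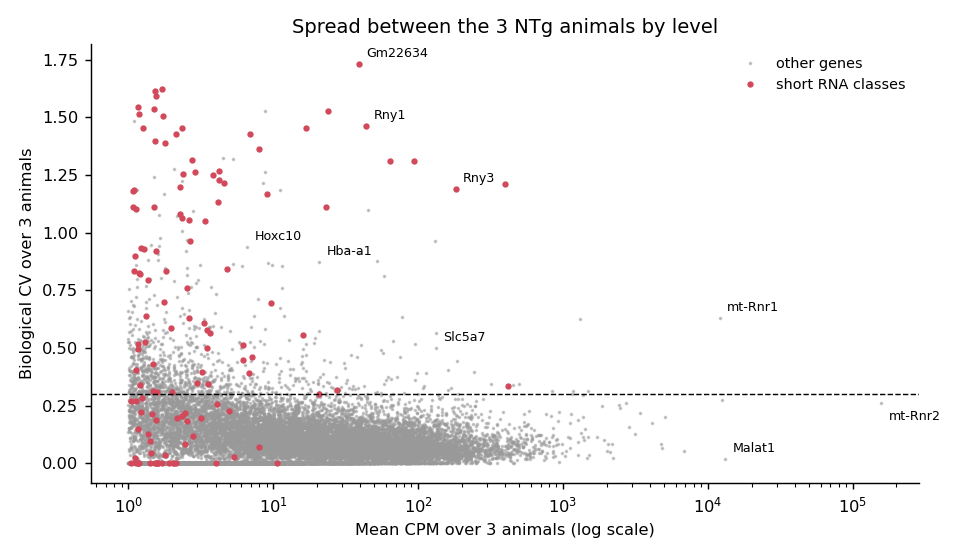
Biological CV over the 3 NTg animals against mean CPM (log axis) for the 16321 genes with at least 1 CPM. Many genes of the short RNA classes (red) lie far above the dashed line at 0.3, most other genes (grey) lie under it, and the abundant Malat1 lies close to 0.

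Among nuclear protein-coding genes with at least 5 CPM, 163 of 10778 (1.51%) were variable. The share fell with gene length, from 16.3% of genes under 1000 bases to 0.450% of those with 8000 bases or more. With a floor of 1 CPM, messages of ribosomal proteins and of oxidative phosphorylation were variable in 12 of 78 and 10 of 72 cases. Of all protein-coding genes with at least 1 CPM, 4.02% were variable. Among those 12 ribosomal genes 10 were high in NTg 1, against 40.2% of all variable genes with at least 1 CPM. Rpl37, for example, had 14.4, 4.53 and 4.71 CPM and Rps29 14.8, 6.05 and 5.65. Over all 78, however, the median log2 ratio of NTg 1 to the other animals was -0.0254, so the set as a whole was not higher there. The 78 ribosomal protein genes had a median of 15.96 CPM per kilobase. Of the 78, only 5 share no window with another gene and 14 share more than 50% of their windows, so their levels are uncertain. Levels also followed base composition differently in NTg 1. In the fifth of genes with the least GC the median log2 ratio of NTg 1 to the other animals was -0.13, and in the fifth with the most GC 0.09. NTg 2 ran the opposite way, from 0.07 to -0.06, and so did NTg 3, from 0.06 to -0.02. Each ratio sets an animal against the others, so these ratios are not independent of that of NTg 1. The part of RNA size and GC content in the spread was not tested.

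Other messages that were high in NTg 1 included Chga and Chgb, the chromogranins of dense-core vesicles, with 282, 143 and 135 CPM and 152, 66.9 and 65.8 CPM. Haemoglobin genes were high there too: Hba-a1 had 41.5, 12.8 and 8.01 CPM and Hba-a2 26.8, 13.4 and 10.4. Hbb-bs, the main adult beta chain, did not follow, with 4.22, 5.11 and 5.03 CPM, whereas Hbb-bt did, with 2.34, 1.09 and 0.534 CPM. Hbb-bs shares 62.6% of its windows with Hbb-bt, and the alpha genes share 56.5% and 74.5% of their windows with each other. S100a1, a calcium-binding protein, was low in NTg 1 with 29.0, 99.5 and 73.6 CPM, as was the actin gene Actg1 with 278, 522 and 561. By count, 401 of the 998 variable genes (40.2%) had NTg 1 as the high animal, against 21.6% of all genes with at least 1 CPM. Leaving NTg 1 out, 747 genes were variable over the other pair, of which 351 had also been variable over the 3.

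NTg 2 differed in its Hox genes. Hoxc10, a lumbar gene (chromosome 15, 102966796 to 102971893), had 343, 13 and 137 counts, or 13.2, 0.678 and 6.09 CPM. Hoxc9 had 18.98, 3.96 and 10.5 CPM, Hoxa9 25.6, 7.19 and 25.4, and Hoxd9 5.64, 1.46 and 2.94. All 4 were lowest in NTg 2, as was Hoxa10 with 4.29, 1.41 and 2.27 CPM. Hoxc8 went the other way with 85.2, 218 and 92.6 CPM, and Hoxb9 had a biological CV of 0.0315. Among the 12 genes of groups 6 to 9, 5 were variable, against 6.11% of all genes with at least 1 CPM. In the same animal the motor neuron genes Slc5a7, Chodl and Chat were high (values above), and so was Vipr2, a peptide receptor, with 2.99, 5.79 and 2.71 CPM. Of the 14 motor neuron genes with at least 1 CPM these 4 were variable, against 6.11% of all such genes. Prph, another gene of that list, did not follow, with 22.5, 21.5 and 13.4 CPM. Slc10a4, a vesicular protein of cholinergic neurons, had 8.44, 14.2 and 8.67 CPM. The part of cord level in these values was not tested. The summed level of the Hox groups 10 to 13 was 17.9, 2.29 and 8.50 CPM, and in the other genotypes it ran from 1.45 to 103.

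**Figure D5:**
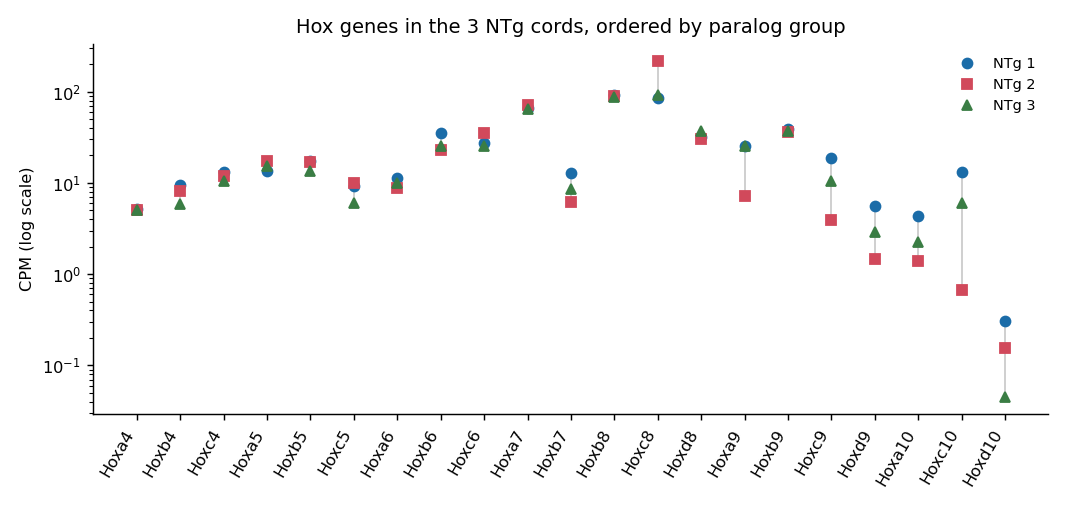
CPM (log axis) of the Hox genes averaging 0.1 CPM or more, shown for each NTg animal and ordered by paralog group from 4 at the left to 10 at the right. NTg 2 is highest in Hoxc8, and NTg 2 lies lowest in Hoxa9, Hoxc9, Hoxd9, Hoxa10 and Hoxc10.

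Several vessel genes were lowest in NTg 2. The endothelial receptors Flt1 and Tek had 92.5, 41.3 and 81.3 CPM and 14.95, 6.83 and 10.9 CPM, the junction gene Cdh5 9.70, 5.37 and 6.58, and the adhesion gene Pecam1 17.02, 9.38 and 15.4. The transporter Slc2a1 and the claudin Cldn5 (5.06, 4.43 and 6.41 CPM) changed less. The summed endothelial level was 346, 241 and 352 CPM, and 241 lies below the range of the other 15 libraries (273 to 467). Of the 14 endothelial genes 2 passed the limit of 0.3, against 6.11% of all genes with at least 1 CPM. Igfbp5, a growth factor-binding protein, had 104, 36.7 and 82.8 CPM, and Nnat, an imprinted proteolipid gene, 22.7, 7.82 and 19.7.

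Some genes were highest in NTg 3, Vim (above) and several of acute response among them. Btg2, an antiproliferative gene induced by activity and stress, had 5.33, 4.33 and 11.1 CPM, Dusp1, a phosphatase of MAP kinases, 3.83, 3.86 and 7.56, and Nr4a1, an orphan nuclear receptor, 3.11, 2.14 and 5.38. Fos had 6.29, 5.58 and 10.2 CPM. Of the 10 immediate early genes with at least 1 CPM these 4 were variable, against 6.11% of all such genes, and all 4 were highest in NTg 3. The summed level of the list was 97.6, 74.9 and 108 CPM, and in the other genotypes it ran from 89.7 to 131 with a median of 105. By this sum NTg 3 lay near the middle of the other libraries and NTg 2 below them. Vim and Fos in NTg 3 also lay within the ranges of the other genotypes, 23.3 to 152 and 6.08 to 13.4 CPM. Jun, Arc and Egr1 were not among the 4 variable genes of the list. Sgk1, a kinase induced by glucocorticoids, had 28.9, 25.5 and 46.1 CPM and A2m, a protease inhibitor, 98.7, 79.2 and 151. The collagen gene Col6a1 was also variable and highest in NTg 3. The glucocorticoid target Fkbp5 did not move with Sgk1, with 13.2, 11.8 and 10.9 CPM.

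Further list members passed the limit at low levels. They were Slc17a8, Tlx3 and Nmu of dorsal neurons, Npy of inhibitory neurons, Pkd1l2 and Gata2 of the neurons that contact the cerebrospinal fluid, the ependymal genes Ccdc153, Rsph1, Cfap126 and Rarres2, and Gpnmb, Myh11, Mgp, Ncmap, Usp18 and Hif3a. Their mean levels ran from 1.14 CPM in Cfap126 to 7.37 CPM in Npy. The noncoding genes Rpph1 (7.17, 0.886 and 0.667 CPM) and Rnu11 (4.64, 0.521 and 0.178 CPM) followed the other short RNAs.

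At the other end, 10 genes with at least 100 CPM had the smallest spread. They were led by Nalcn, a sodium leak channel, with 128, 129 and 128 CPM, and Gnl3l, a nucleolar GTPase, with 209, 211 and 211. Calr (459, 461 and 463 CPM), a chaperone of the endoplasmic reticulum, and Rab3c (347, 350 and 350 CPM), a vesicle GTPase, followed. For Dixdc1, Spop, Afdn, Pacs2, Abi2 and Rap1gds1 the SD was at most 1.98 CPM. All 10 had a biological CV of 0, so their spread did not exceed counting error and their order says nothing. Of the usual reference genes, Polr2a (85.9, 80.8 and 81.5) and Tbp (24.6, 26.0 and 26.6) were steady, whereas Gapdh (204, 298 and 309), Sdha (242, 164 and 162) and Hsp90ab1 (1173, 819 and 810) differed between NTg 1 and the other animals without passing the limit. Actb had 716, 687 and 764 CPM. Gapdh shares 18.2% of its windows with 74 other genes or gene models.

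Many of the genes that spread most in NTg also had a wide spread in animals that the ranking had not used. Of the 200 genes with the largest biological CV and at least 5 CPM, 167 (83.5%) exceeded the 90th percentile of the within-genotype SD of log2 CPM in the other 5 genotypes, which 10.0% of all 11528 such genes exceed by definition. The median SD was 0.47 for the 200 genes and 0.16 for all. These 2 sets were not matched for level, and this SD includes counting error. Over all genes of a level its median was 0.223 at 5 to 10 CPM and 0.117 at 100 CPM or more. The number of variable genes in the other genotypes was 828 in Q33, 1257 in Q22, 1316 in Q22;TDP-43, 1581 in Q33;TDP-43 and 1933 in TDP-43, so only Q33 had fewer than NTg. Of the 998 genes of NTg, 431 (43.2%) were also variable in TDP-43, 394 (39.5%) in Q22 and 197 (19.7%) in Q33. In Q33;TDP-43 351 (35.2%) were, and in Q22;TDP-43 311 (31.2%). In the same order, the shares of all genes with at least 1 CPM that were variable there were 11.8%, 7.70%, 5.08%, 9.89% and 8.06%. These shares are not matched for level, with which the share called variable falls. The shared genes made up 22.3%, 31.3%, 23.8%, 22.2% and 23.6% of the variable genes of those groups.

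Finally the level of every gene in NTg was compared with the mean of the other 5 genotypes, to ask whether the baseline stands apart from the knock-in cords as a whole. By edgeR's quasi-likelihood test 0 of 20635 genes (0%) passed an adjusted p of 0.05. The smallest adjusted p was 0.262, and 1804 genes had an unadjusted p under 0.05. DESeq2 called 16 genes. The edgeR test called 30 when the TDP-43 libraries were left out and 460 when no filter on low counts was used, of which 451 are genes that the filter keeps, so the count of 0 depends on these choices. By the edgeR test with its filter none of the 376 list members tested was called. Car12, a carbonic anhydrase, had the smallest p in the edgeR test, with a log2 difference of 1.35 (SE 0.23) towards NTg, and Aplnr, the apelin receptor of endothelium, followed with 1.64 (SE 0.31), both at an adjusted p of 0.262. On simulated data the test recovered 88.8% of 80 genes changed 2-fold and 63.7% of 80 changed 1.5-fold. Whether recovery is as high in the measured libraries was not tested, and Car12 at 1.35 and Aplnr at 1.64 were not called there. The NTg animals were alike in Xist and Y-linked genes while the other genotypes were mixed, and this cannot be told apart from genotype in the contrast.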

How the data were processed

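Total RNA was taken from whole spinal cords (RIN above 7.5), depleted of ribosomal RNA and read as stranded paired ends of 100 bases, per the labels' protocols. Trim Galore 0.4.1, TopHat2, featureCounts and DESeq2 on mm10 are named in the submitters' processing notes. The deposited counts are whole numbers per gene made with featureCounts 1.6.1 on GENCODE exons, per the file headers, without normalization. Groups came from the labels, and replicate numbers only name animals.

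From the counts, CPM after TMM scaling and CPM per kilobase (column Length) were computed with edgeR 4.0.16 and limma 3.58.1 in R 4.3.3. The biological CV is the SD over the mean of the 3 animals after Poisson error is removed. Ranking used a mean of at least 5 CPM. NTg was tested against the mean of the other 5 genotypes with edgeR's quasi-likelihood test over all groups, Benjamini-Hochberg adjusted over 20635 genes, with DESeq2 1.42.0 as an alternative. Python 3.11.15, pandas 2.3.3, numpy 2.4.6, scipy 1.17.1 and matplotlib 3.10.9 served for the rest. Both calculations were tested on simulated data. SDs measure the spread between the 3 NTg animals, and p-values set a difference of means against the spread within the 6 genotypes.

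Windows of 100 bases and sequences came from GENCODE M21 transcripts. Symbols were matched for 54409 of 54446 gene identifiers. Rmrp was not matched.

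The members and the 41 gene lists were chosen with earlier results of these data known. Named by rule were the 15 most counted genes, the 25 highest per kilobase, the 20 most variable, the 10 most stable, and, of each list, the 3 highest per kilobase, the lowest and the variable members. Further list members such as Chat, Gad1, Slc1a3 and Cldn11 and other genes, among them Chga, Chgb, Rpl37, Rps29, S100a1, Actg1, Igfbp5, Nnat, A2m, Slc10a4 and Rnu1a1, were named after their values were seen. Some genes that the rule names are not reported here.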

Additional observations from a re-analysis of the deposited data

How the results depend on the processing

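With the 15 most counted genes chosen off the mitochondrial chromosome, their share of all counts was 6.44%. The number of variable genes depended on the floor and the estimator: 7704 with no filter, 138 at a floor of 10 CPM and 436 with edgeR's tagwise dispersion. With the short RNA classes left out, an alternative chosen after seeing the data, it was 916. Leaving out each animal in turn gave 747 to 1454 variable genes, 16227 to 16364 genes with at least 1 CPM, and a share of the 15 most counted genes of 23.99% to 26.7%. For NTg against the other genotypes, 460 genes were called with no filter (451 of them kept by the filter), 30 without the TDP-43 libraries and 16 with DESeq2, and 0 when any 1 NTg animal was left out. The cause was not tested. No paired analysis was possible because the labels carry no replicate numbers shared between the groups. With 3 animals, single SDs are imprecise, and differences of genes near 1 CPM were not detectable below counting error.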
